A study of Mus musculus with 6 samples.

Results

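The genes that build the beating core of the sperm tail were examined in decapsulated seminiferous tubules from testes of wild-type and Nsun7-/- mice. The set holds 53 of the 34144 rows of the deposited gene table. Members were taken by symbol alone: axonemal dynein heavy, intermediate and light chains (Dnah, Dnai, Dnal and Dnali1), dynein axonemal assembly factors (Dnaaf), nexin-dynein regulatory complex genes (Drc, Ccdc65, Tcte1 and Iqcg), the ruler proteins Ccdc39 and Ccdc40, radial spoke heads and stalks (Rsph) and tektins (Tekt). The rule itself uses no expression value, but the set was proposed with earlier results of these data known. One row, Dnah2os, is an antisense RNA over Dnah2 and encodes no dynein.

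The axoneme of the flagellum is a ring of doublet microtubules around a central pair. Outer and inner dynein arms on each doublet are the motors that make the doublets slide, and radial spokes and the nexin-dynein regulatory complex turn sliding into bending. Motors are pre-assembled in the cytoplasm by the assembly factors, CCDC39 and CCDC40 set the spacing of spokes and inner arms along the doublet, and tektins lie inside the doublet wall. Some subunits have a form used in sperm and another used in motile cilia, so testis and ciliated epithelium draw on different family members.

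Libraries came from 3 wild-type (WT) and 3 Nsun7-/- (knockout) mice, all C57Bl/6J and aged 3 months, with 1 testis library each made from decapsulated seminiferous tubules. The labels name no other allele and no treatment, and they do not describe how the Nsun7 allele was made. Nsun7 is a putative RNA methyltransferase of the NOL1/NOP2/SUN family. It lay between 35.7 and 37.2 CPM in WT and between 17.8 and 25.2 CPM in the Nsun7-/- mice, with a log2 fold change of -0.84 (edgeR adjusted p = 0.016). CPM is the count scaled to a common library size with TMM factors, and TPM is the transcript abundance scaled to a common total, which divides by transcript length and allows levels of different genes to be compared.

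Libraries held between 23480448 and 28558865 estimated counts. The members together took between 1.09% and 1.37% of them. The first principal component held 41.1% of the variance. WT mice 1, 2 and 3 lay at -29.2, -16.3 and -3.39 on it, and Nsun7-/- mice 1, 2 and 3 at -3.09, 9.83 and 42.2. Wild-type mouse 1 and Nsun7-/- mouse 3 were thus at its opposite ends, and values without them are given where they bear on a result. Every WT library lay below every knockout one, so leaving out these mice does not part genotype from the component. Testis markers were present in every library: the summed CPM of Prm1, Prm2, Tnp1 and Tnp2, chromatin proteins of elongating spermatids, ran from 5788 to 7700 in WT and from 4889 to 6947 in the Nsun7-/- mice, and 0 of the 4 was called. All 4 had a fold change below 0 (median -0.32 on the log2 scale). The 5 Leydig cell markers all lay above 0 (median 0.60, summed CPM 1657 to 2805 in WT and 2092 to 4743 in the Nsun7-/- mice), and 1 of them was called: Hsd3b1, a steroid-making enzyme with close copies in the genome (1.17, edgeR adjusted p = 0.00345). The 3 peritubular myoid markers lay below 0 (median -0.28, summed CPM 432 to 478 and 327 to 428). Round spermatid markers went the other way from those of elongating spermatids, with all 3 above 0 (median 0.19). The 3 spermatocyte markers lay below 0 (median -0.14) and the 3 macrophage markers above 0 (median 0.25). Sertoli cell and spermatogonia markers were mixed (medians -0.07 and 0.07), and 0 markers of these 5 lists were called. The part of these shifts in the member values was not tested. In bulk tissue, fewer cells of a type and less RNA per cell cannot be told apart.

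Most axonemal genes lay at 10 TPM or more in WT testis, and 4 of the 6 lowest rows are forms known from other cilia. Wild-type TPM, taken as the mean of 3 mice, ran from 0.0639 for Rsph4a to 388 for Rsph3a, with 15 of 53 members at 100 TPM or more, 42 at 10 or more and 6 under 2. Those 6 were Dnah9, Dnaaf6, Dnah11, Dnaaf6b, Dnah5 and Rsph4a. Dnah5 (outer arm gamma-type heavy chain), Dnah9 and Dnah11 (outer arm beta-type heavy chains) and Rsph4a (spoke head) are the forms known from airway, ependymal or nodal cilia.

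Among motors, Dnah8, the gamma-type outer arm heavy chain of sperm, stood highest at 439, 288 and 332 TPM in WT mice 1, 2 and 3 and at 330, 310 and 435 TPM in Nsun7-/- mice 1, 2 and 3. Dnah17, the beta-type chain of the sperm outer arm, was at 147 ± 40.2 TPM (SD, n = 3) in WT, and the inner arm chains Dnah2 and Dnah1 at 112 ± 24.7 and 82.5 ± 19.4. Dnah5 was the lowest heavy chain at 0.0923 ± 0.0333 TPM. On full transcripts the order of Dnah2 and Dnah1 was the other one: Dnah2-202 was at 39.0 ± 11.1 TPM and Dnah1-201 at 81.1 ± 19.02, since Dnah2-206, an annotated coding fragment of 696 bases, held 51.9% of the TPM of Dnah2. Of the 4 intermediate chains Dnai2, of the outer arm, was highest at 40.3 ± 4.50 TPM, then Dnai3 at 21.5 ± 2.35 and Dnai1, of the outer arm, at 19.8 ± 2.84, with Dnai4 lowest at 9.96 ± 1.25. Dnal4 and Dnali1, light chains, were at 108 ± 18.3 and 64.6 ± 15.4 TPM, and Dnal1, a light chain bound to an outer arm heavy chain, at 6.17 ± 1.1.

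Among the assembly factors Dnaaf1 stood apart at 281 ± 55.9 TPM. Dnaaf9 followed at 79.8 ± 19.4 and Dnaaf5, a HEAT-repeat protein, at 56.0 ± 5.74, while Dnaaf6b had 3 counts in each wild-type library and 0, 1 and 2 in Nsun7-/- mice 1, 2 and 3. The nexin complex was led by Tcte1 (DRC5) at 108 ± 14.4 TPM, then Ccdc65 (DRC2) at 61.5 ± 16.2 and Drc7 at 47.3 ± 4.47, with Iqcg (DRC9) lowest at 10.6 ± 2.81. Ccdc40 and Ccdc39 were at 39.2 ± 6.37 and 19.7 ± 1.13 TPM. All 5 tektins lay within a narrow span, from 81.1 ± 13.3 TPM for Tekt3 to 202 ± 31.7 for Tekt2, with Tekt4 at 142 ± 3.89 and Tekt5 at 118 ± 25.2. Of the spoke genes Rsph1 was at 214 ± 48.6 and Rsph6a, the spoke head protein of sperm, at 174 ± 23.5.

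**Figure D1:**
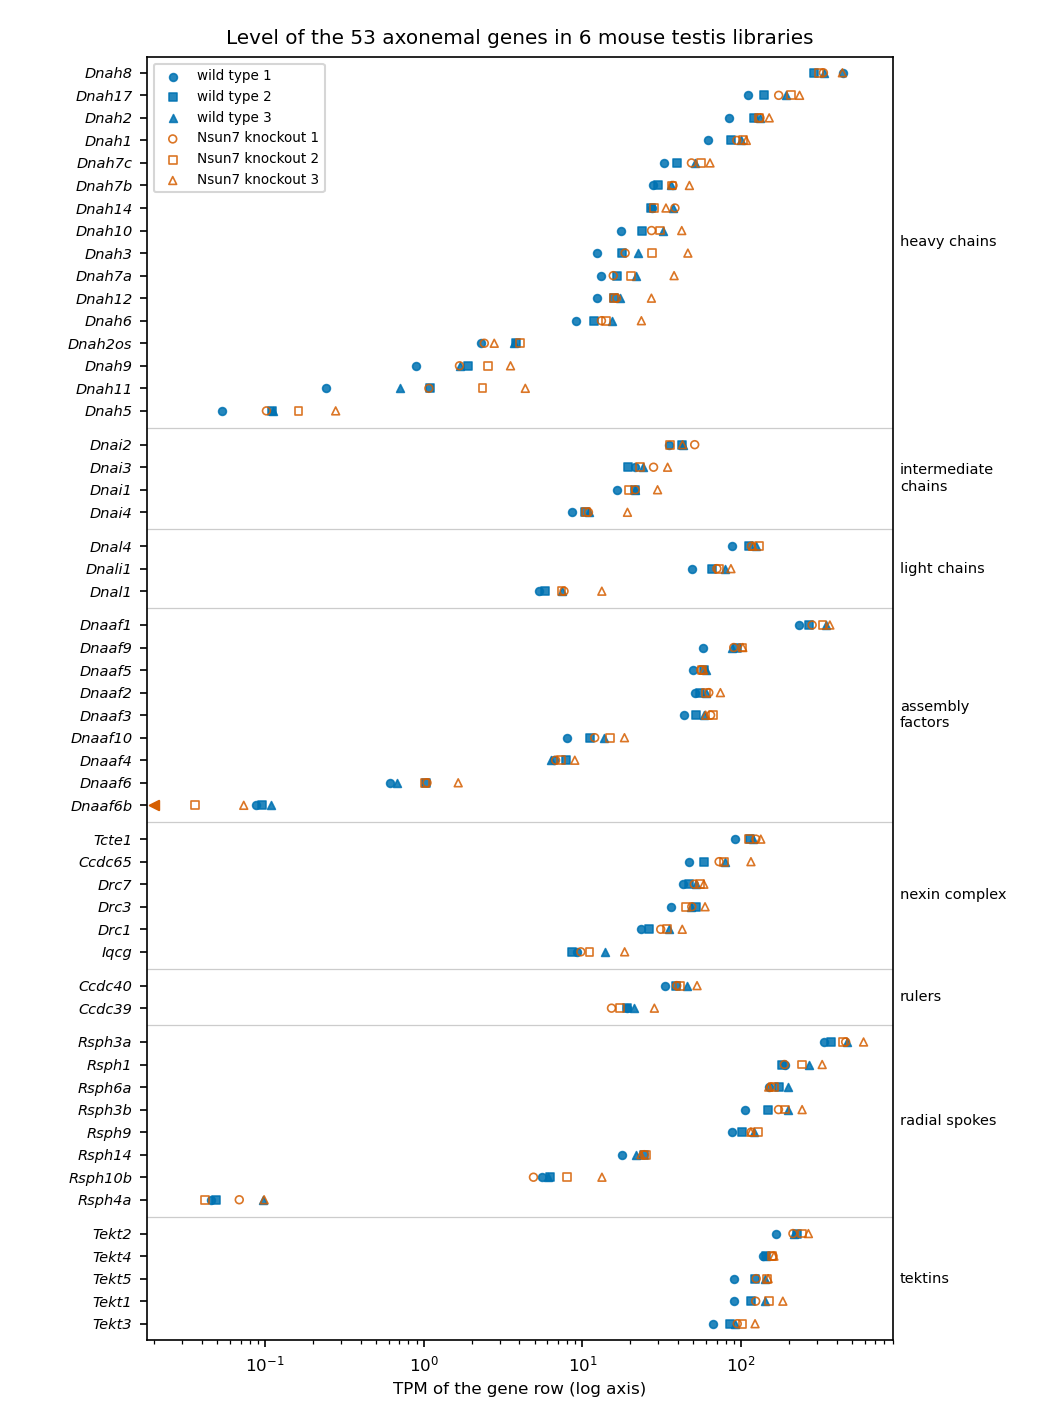
TPM of each of the 53 members (log axis) in the 3 wild-type (filled) and 3 knockout (open) libraries, ordered by wild-type level within each group of genes. The arrowhead marks Nsun7-/- mouse 1, in which Dnaaf6b had no count; Rsph4a, Dnah5 and Dnaaf6b lie under 1 TPM in every library, whereas all 5 tektins lie above 60.

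Gene-level TPM depended on short annotated fragments for some members. Transcript names were matched through GENCODE M21 for 49 members, and for 47 of them the transcripts summed to the gene row within 1 count in every library. Among these, 8 had their largest TPM on a different transcript from the one with most reads. Rsph3a was the clearest case: Rsph3a-207, a retained-intron transcript of 353 bases, held 62.9% of its wild-type TPM (244 ± 49.97), while the coding Rsph3a-201 of 2189 bases held 9.80% (38.1 ± 5.11). Dnah12-202 and Dnah7c-201, annotated coding fragments of 611 and 612 bases, likewise held 60.7% and 64.6% of the TPM of their heavy chains, and Ccdc39-205, a retained intron of 423 bases, 61.0%. Taken by the most counted transcript, the highest members were Dnaaf1-201 (281 ± 55.9), Dnah8-201 (199 ± 22.4), Rsph1-201 (174 ± 31.7) and Tekt2-202 (167 ± 25.3), and Rsph3a moved from the first place among 53 to the place of rank 22 among 47. Reads shared by close copies are split by estimation, so the separate values of Dnah7a, Dnah7b and Dnah7c, of Rsph3a and Rsph3b, and of Dnaaf6 and Dnaaf6b are uncertain.

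Within libraries, the sperm form of each outer arm chain exceeded the form known from cilia by orders of magnitude. On gene TPM Dnah8 exceeded Dnah5 by 3976-fold in WT and 2131-fold in the Nsun7-/- mice, Dnah17 exceeded Dnah9 by 101-fold and 82.1-fold, and Rsph6a exceeded Rsph4a by 2875-fold and 2363-fold (geometric means of 3 libraries). Rsph4a rested on 3 to 7 counts per library, so its ratio is a rough one. Dnah17 exceeded Dnah11 by 252-fold in WT and 91.1-fold in the Nsun7-/- mice. The log2 ratio was lower by 1.47 in the Nsun7-/- mice in that pair, with p = 0.2 in a two-sided exact permutation test and overlapping libraries. Over the 5 pairs p ran from 0.2 to 0.7 (0.5 to 0.7 after Benjamini-Hochberg adjustment), and 3 mice against 3 allow no p under 0.1. Taken on the most counted transcripts, the folds in WT and in the Nsun7-/- mice were 2265 and 1481 for Dnah8 over Dnah5, 204.4 and 147 for Dnah17 over Dnah9, and 1345 and 109.5 for Dnah17 over Dnah11, of which only the last pair had no overlap between the genotypes. For the spoke stalk pair the order depended on the transcript taken: Rsph3b was at 0.38 times Rsph3a on gene TPM, and at 3.37 times on the most counted transcripts, in WT.

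Between the genotypes, no axonemal gene passed the test. Of 51 members tested, 0 had an adjusted p under 0.05 in edgeR's quasi-likelihood test, where 0.567% of all 21002 genes did (0.233% higher and 0.333% lower in the Nsun7-/- mice). An unadjusted p under 0.05 was found for 5 members (9.8%, against 8.39% of all genes): Rsph6a, Dnah11, Dnah9, Dnah3 and Dnaaf5. DESeq2 called 1 member, Dnah11, where it called 0.878% of genes. The median log2 fold change was 0.01 over the members and 0.01 over all genes, with 27 members above 0 and 24 below. For 42 of the 51 the 95% interval lay within a 1.5-fold difference in either direction, and for 47 within 2-fold. Rsph4a and Dnaaf6b had too few counts to be tested.

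**Figure D2:**
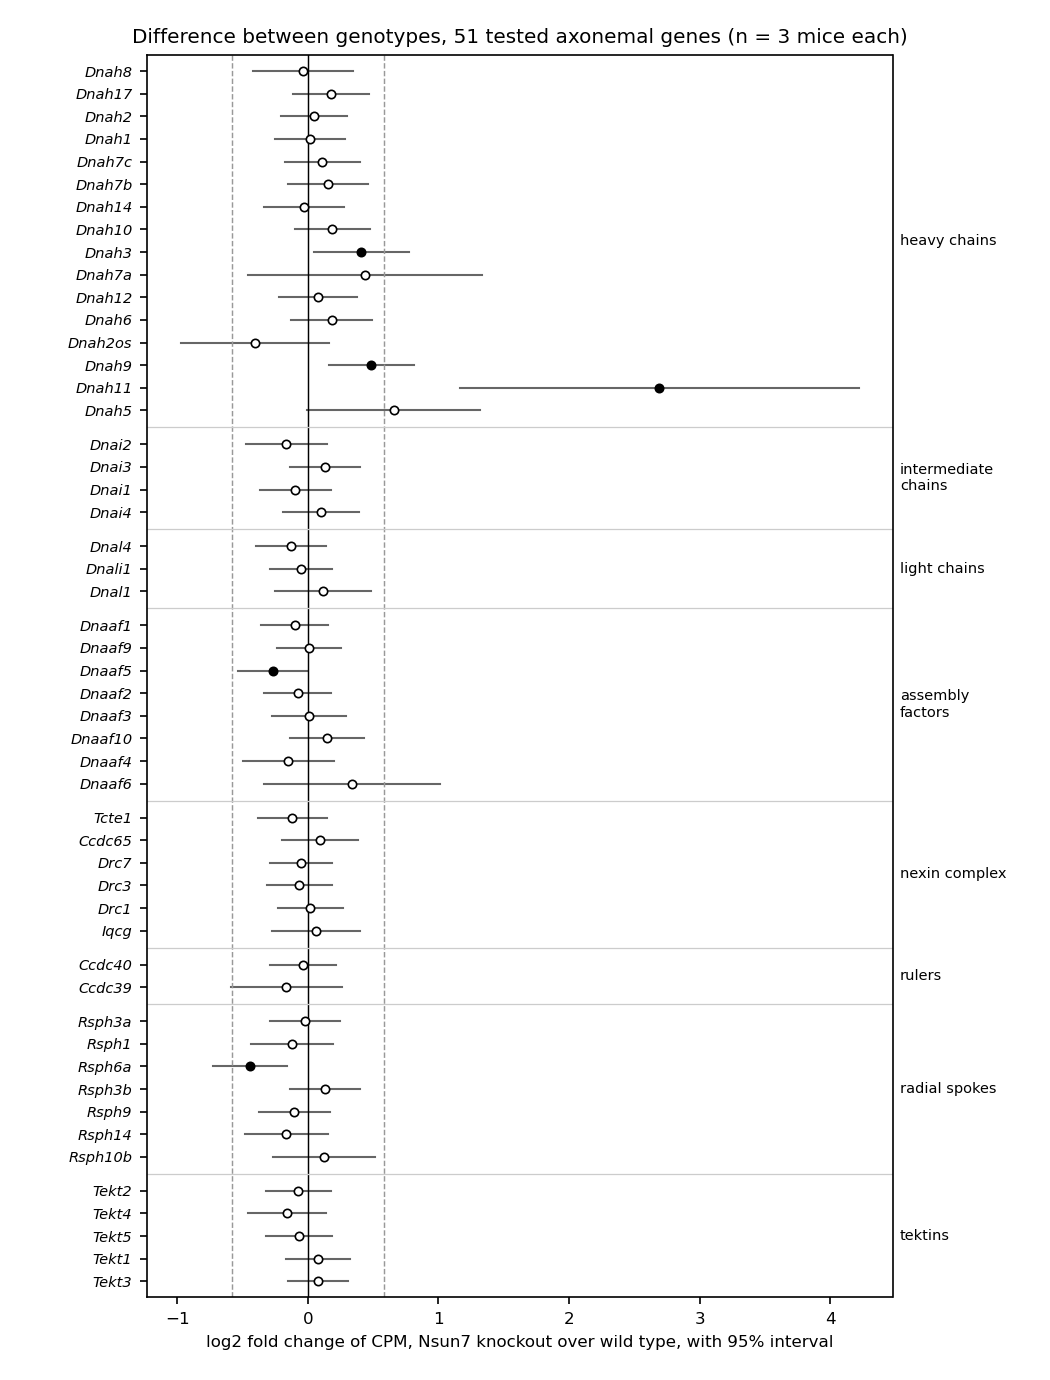
Log2 fold change of CPM (knockout over wild type) with its 95% interval for the 51 tested members, with filled points where the unadjusted p was under 0.05 and dashed lines at a 1.5-fold difference. Nearly all intervals lie between or close to the dashed lines; Dnah11 stands far to the right at 2.69, and Rsph6a and Dnah9 lie on either side of 0.

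Dnah11 had the largest difference of the set. Dnah11 encodes an outer arm heavy chain known for its part in nodal cilia and the left-right axis. The gene row held 58, 106 and 89 counts in WT mice 1, 2 and 3 (2.63, 4.11 and 3.43 CPM) and 256, 445 and 1199 counts in Nsun7-/- mice 1, 2 and 3 (10.3, 16.7 and 38.8 CPM). Each knockout library exceeded each wild-type library, and the knockout libraries themselves spread by several fold, with mouse 3 highest. The log2 fold change was 2.69 (SE 0.59, 95% interval 1.17 to 4.22), with an adjusted p of 0.319 in edgeR and of 0.00105 in DESeq2 (2.67). Without Nsun7-/- mouse 3 it was 1.98, with an edgeR adjusted p of 0.00496, and without both that mouse and WT mouse 1 it was 1.84 (adjusted p = 0.0188), called in both of these fits. In TPM the gene row reached 2.59 ± 1.66 (SD, n = 3) in the knockout against 0.681 ± 0.426 in WT. The genotypes overlapped on that scale (Nsun7-/- mouse 1 at 1.08 and WT mouse 2 at 1.09). In WT mouse 2, 0.672 of this TPM lay on Dnah11-202, a retained intron of 716 bases with 8.61 estimated counts. The full coding transcript Dnah11-201 did not overlap in TPM. It was at 0.0614, 0.133 and 0.133 in WT mice 1, 2 and 3. In Nsun7-/- mice 1, 2 and 3 it was at 0.870, 1.51 and 4.21. Dnah17 stood at 204.1 ± 30.6 in the same Nsun7-/- mice. On centred log2 TPM the fold change of the Dnah11 gene row was 0.74 with 1 added and 1.44 with 0.1 added.

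A pair of transcripts carried the Dnah11 reads, with differences of opposite sign. The full coding transcript Dnah11-201 (14072 bases, 82 exons) had 21.6, 43.1 and 38.3 estimated counts in WT mice 1, 2 and 3 and 253, 436 and 1198 in Nsun7-/- mice 1, 2 and 3. Dnah11-204 (8260 bases, 52 exons, annotated as a target of nonsense-mediated decay) had 36.8, 54.4 and 47.7 in WT and 0 in all 3 knockout libraries. The share of the gene's counts on Dnah11-201 was 40.2% ± 3.05 (SD, n = 3) in WT and 99.0% ± 0.944 in the Nsun7-/- mice. Taken against a floor of 3 counts per library, Dnah11-204 was at least 17.1-fold lower in the Nsun7-/- mice, a bound that covers counting error only. Neither transcript passed the test over 58773 transcripts (Dnah11-201 at a log2 fold change of 3.96 with an edgeR adjusted p of 0.211, Dnah11-204 with one of 0.117), and 0 of 150 tested member transcripts did, where 0.0272% of all transcripts did.

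Dnah11-204 starts within exon 33 of Dnah11-201, and 48 of its 52 exons are identical to exons of the full form, so reads in the shared exons fit both forms and were divided by estimation. The forms differ at exon 66, out of which Dnah11-204 leaves 34 bases, and by 1 extra exon of 144 bases. Exon 66 is shown because reads across it can tell the forms apart. It is coding in Dnah11-201 and lies at chr12:117933682-117933886 on the minus strand of GRCm38 (GENCODE M21). Its 205 bases are given with the 34 bases that Dnah11-204 leaves out in capitals.
Dnah11-201 exon 66: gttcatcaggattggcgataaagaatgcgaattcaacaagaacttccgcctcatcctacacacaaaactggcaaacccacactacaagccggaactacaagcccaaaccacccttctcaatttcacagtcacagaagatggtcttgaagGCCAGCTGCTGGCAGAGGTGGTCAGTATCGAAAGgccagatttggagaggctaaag

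**Figure D3:**
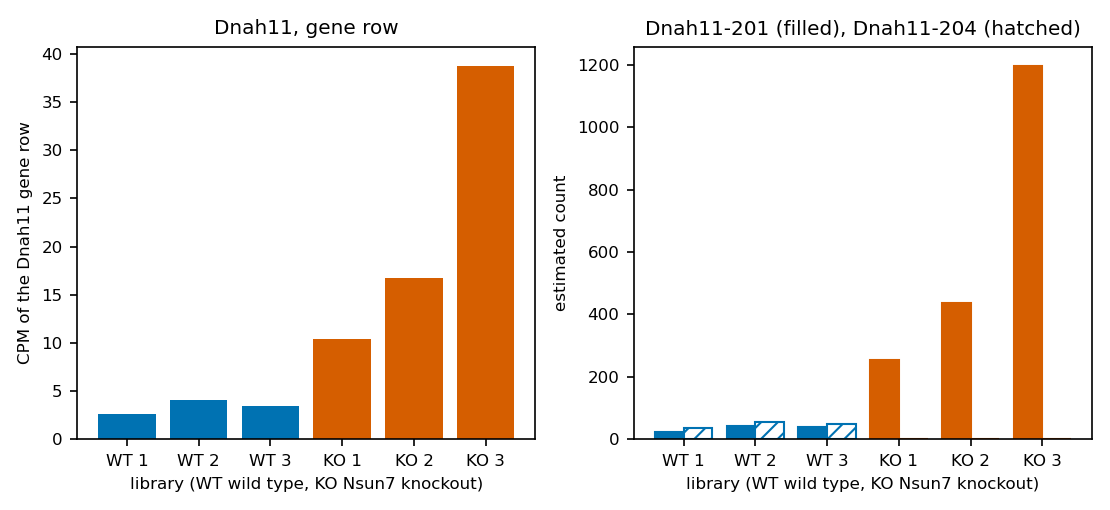
Dnah11 in each library: CPM of the gene row (left) and estimated counts (right) of the transcripts Dnah11-201 (filled) and Dnah11-204 (hatched). All 3 knockout libraries exceed the wild-type libraries for Dnah11-201, with mouse 3 highest at 1198, and show no count for Dnah11-204.

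In GENCODE M21 the last exon of Dnah11 overlaps the end of Cdca7l, a gene on the opposite strand. Cdca7l was lower in the Nsun7-/- mice (log2 fold change -0.87, edgeR adjusted p = 0.0306) and was the sole call among the 8 tested genes nearest to Dnah11. The sources do not state that the counting kept strand, and the part of shared reads in either value was not tested. Markers of multiciliated epithelium, which lines the rete testis and efferent ducts and is known to use Dnah11, overlapped between the genotypes in their sum. The summed CPM of 7 markers ran from 157 to 161 in WT and from 149 to 166 in the Nsun7-/- mice, and 0 of the 4 tested ones was called. Foxj1 alone made up most of the sum (117 ± 1.36 CPM in WT and 116 ± 9.78 in the Nsun7-/- mice, SD, n = 3). Mcidas had at most 7 counts, Cdhr3 at most 1, and Sntn none in any library. The sum thus mainly follows Foxj1 and says little about the amount of this epithelium. Its part in the Dnah11 values was not tested.

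Dnah9 showed a smaller difference in the same direction. It stood at 10.5, 14.3 and 12.6 CPM in WT mice 1, 2 and 3 and at 15.9, 16.9 and 19.6 CPM in Nsun7-/- mice 1, 2 and 3, without overlap between the genotypes. The log2 fold change was 0.49 (SE 0.15, edgeR adjusted p = 0.323), and 0.29 (adjusted p = 0.759) without WT mouse 1 and Nsun7-/- mouse 3. Dnah9-201, the full coding transcript of 13798 bases, held 70.0% ± 4.52 of its counts in WT and 79.2% ± 13.1 in the Nsun7-/- mice (SD, n = 3). Dnah5, the third heavy chain of cilia, had 21 to 40 counts in WT and 33 to 88 in the Nsun7-/- mice, which overlapped (0.66, SE 0.31, adjusted p = 0.596). On centred log2 TPM it was at -0.18 with 1 added and at 0.19 with 0.1 added. Its TPM was 0.0923 ± 0.0333 in WT and 0.181 ± 0.0897 in the Nsun7-/- mice (SD, n = 3). These levels are far under the 1 added, so the value of -0.18 says little about Dnah5.

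Rsph6a was the member of smallest p and the one with the clearest lower values. Its CPM was 358, 317 and 327 in WT mice 1, 2 and 3 and 270, 262 and 205 in Nsun7-/- mice 1, 2 and 3, so that the highest knockout library lay under the lowest wild-type one. The log2 fold change was -0.44 (SE 0.13, 95% interval -0.73 to -0.16, edgeR adjusted p = 0.287), and -0.28 (adjusted p = 0.406) without WT mouse 1 and Nsun7-/- mouse 3. Both of its main transcripts were lower without overlap in CPM, as were 6.05% of all transcripts. Their estimated counts, given next, are not scaled for depth. Rsph6a-201, with over 87% of the reads in every library, stood at 7397 ± 350 estimated counts in WT and 6262 ± 357 in the Nsun7-/- mice (SD, n = 3). Rsph6a-202, a shorter coding form of 1580 bases, stood at 548, 1043 and 657 in WT mice 1, 2 and 3 and at 377, 324 and 411 in Nsun7-/- mice 1, 2 and 3 (-1.16, adjusted p = 0.399). In TPM, Rsph6a overlapped between the genotypes (151 to 198 in WT, 149 to 161 in the Nsun7-/- mice). TPM of the median gene was 0.30 higher on the log2 scale in the Nsun7-/- libraries. The share of the RNA Rmrp in all counts was 0.985% to 1.76% in these and 1.55% to 4.85% in WT, with overlap. Its part in the TPM values was not tested.

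**Figure D4:**
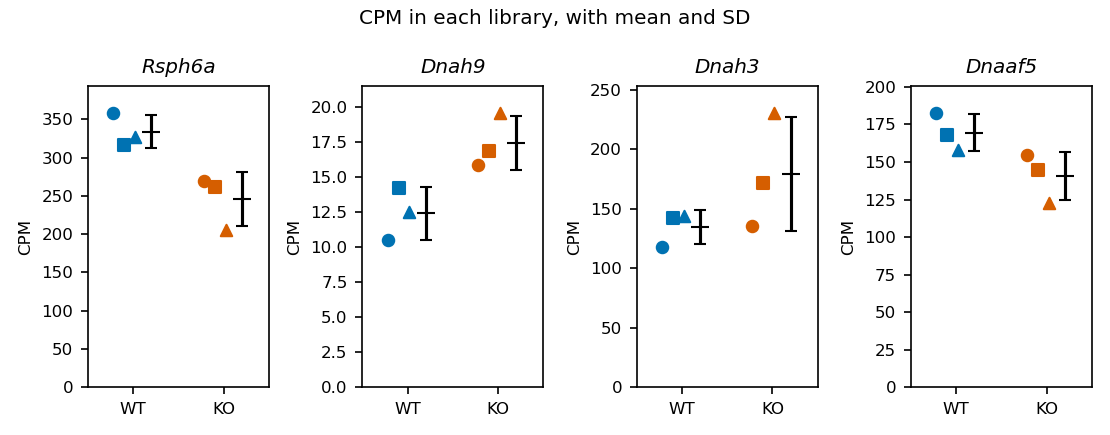
CPM in each library for the other members with an unadjusted p under 0.05 (Rsph6a, Dnah9, Dnah3 and Dnaaf5), with circles, squares and triangles for mice 1, 2 and 3 of each genotype and the mean and SD of 3 libraries beside them. The genotypes do not overlap for Rsph6a, Dnah9 and Dnaaf5, and overlap for Dnah3; Nsun7-/- mouse 3 is the most distant knockout library in each.

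The upstream bases of the 3 members of smallest p were compared for 2 kinds of sites, since the genes of motile cilia are known targets of RFX factors and those of spermatids of CREM. Each stretch is the 250 bases before the RefSeq start on GRCm38.p6, with matches in capitals: Dnah11 at chr12:118199044-118199293 (minus strand), Dnah9 at chr11:66168552-66168801 (minus strand) and Rsph6a at chr7:19054437-19054686 (plus strand).
Dnah11: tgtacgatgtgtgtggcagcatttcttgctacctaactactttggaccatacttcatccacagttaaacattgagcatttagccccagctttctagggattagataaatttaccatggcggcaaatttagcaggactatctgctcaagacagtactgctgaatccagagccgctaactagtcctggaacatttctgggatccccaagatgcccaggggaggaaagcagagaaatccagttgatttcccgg
Dnah9: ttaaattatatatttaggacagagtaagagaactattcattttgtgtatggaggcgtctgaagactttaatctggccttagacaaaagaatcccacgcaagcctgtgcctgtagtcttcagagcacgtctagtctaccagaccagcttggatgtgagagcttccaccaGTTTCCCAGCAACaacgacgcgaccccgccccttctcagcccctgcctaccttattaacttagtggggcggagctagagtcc
Rsph6a: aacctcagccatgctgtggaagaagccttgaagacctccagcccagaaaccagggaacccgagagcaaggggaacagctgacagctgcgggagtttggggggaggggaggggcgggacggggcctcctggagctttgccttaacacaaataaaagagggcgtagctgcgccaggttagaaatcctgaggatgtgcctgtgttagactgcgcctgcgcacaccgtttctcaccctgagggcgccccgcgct
The RFX X-box was searched in a simplified form, GTTNCC then 1 to 4 bases then GNAAC, on both strands. It was found in the Dnah9 stretch, at 70 to 82 bases before the start, and not in those of Dnah11 and Rsph6a. Of 40 members with an entry 4 held it (Dnah9, Tekt2, Dnaaf2 and Dnaaf6), which is 10%, against 1.82% of 27025 genes. The RFX half-site GTTGCC, which overlaps some of these, was present in 10 members (25%, against 11.8% of genes). The cyclic AMP response element TGACGTCA was present in 1 member, Dnah6 (2.5%, against 1.77%). A match is a match of letters, and no binding was measured.

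The heavy chains as a group leaned towards higher values in the Nsun7-/- mice, and this moved with Nsun7-/- mouse 3. Of the 15 protein-coding heavy chain rows 13 had a fold change above 0 (median 0.18 on the log2 scale), against 14 of the 36 other members tested (median -0.06). Of all 21002 genes tested, 11024 lay above 0. By mean CPM without Nsun7-/- mouse 3 the counts were 9 of 15 (median 0.05) and 10 of 36, and without WT mouse 1 as well they were 9 of 15 (median 0.04) and 15 of 36. Without WT mouse 1 alone they were 13 of 15 (median 0.13) and 15 of 36. Nsun7-/- mouse 3 was the highest library for 11 of the 15, for 14 of the 36 other members and for 31.2% of all genes tested. WT mouse 1 was the lowest for 9 of the 15. Dnah3, an inner arm chain, shows it: 118, 142 and 144 CPM in WT mice 1, 2 and 3, and 135, 171 and 230 in Nsun7-/- mice 1, 2 and 3 (0.41, SE 0.17, adjusted p = 0.553), with overlap. Dnah7a was also highest in Nsun7-/- mouse 3, with 85.8 to 122 CPM in WT and 85.01, 113 and 212 in Nsun7-/- mice 1, 2 and 3 (0.44, adjusted p = 0.738), and its lowest library was Nsun7-/- mouse 1.

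Heavy chain transcripts are among the longest of the testis, and other long genes were likewise highest in Nsun7-/- mouse 3. The difference of each library from the gene's mean over 6 libraries had a median over heavy chains of -0.17, -0.11 and 0.05 on the log2 scale in WT mice 1, 2 and 3 and of -0.06, 0.01 and 0.33 in Nsun7-/- mice 1, 2 and 3. Over all 604 genes whose most abundant transcript exceeds 8000 bases, 13 of them members, it was -0.07, -0.05 and -0.01 in WT mice 1, 2 and 3 and -0.07, 0.01 and 0.21 in Nsun7-/- mice 1, 2 and 3. Over the other members it lay between -0.04 and 0.06 in every library. Across 45 members fold change and length had a Spearman rho of 0.53, and across 18932 genes one of 0.15; these values share the 6 libraries. Mean fragment length was 154, 168 and 175 bases in WT mice 1, 2 and 3 and 176, 178.5 and 176 in Nsun7-/- mice 1, 2 and 3, so that WT mouse 1 was lowest and Nsun7-/- mouse 3 did not stand apart. The part of length or of single libraries in the heavy chain values was not tested.

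**Figure D5:**
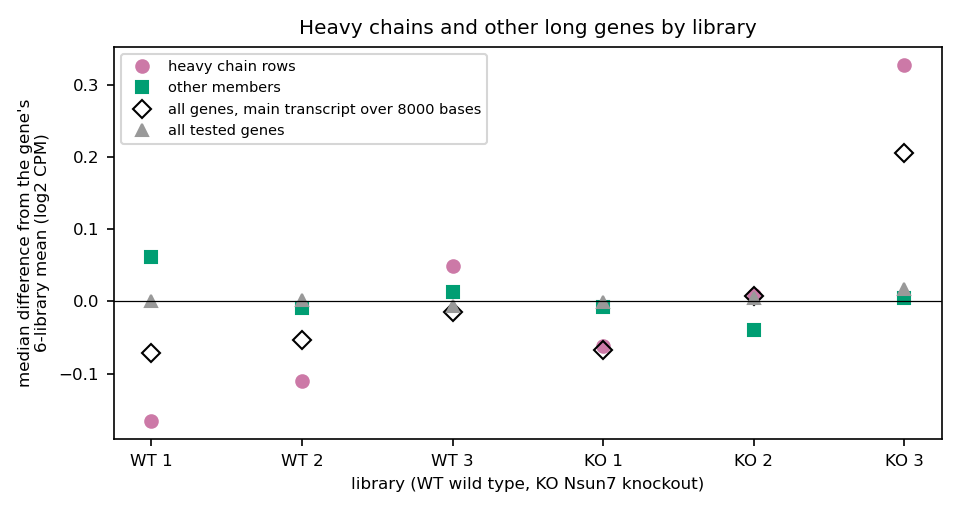
Median difference of each library from the gene's mean over the 6 libraries (log2 CPM) for the 15 heavy chain rows, the 36 other tested members, the 604 genes with a main transcript over 8000 bases and all tested genes. Heavy chains and other long genes lie highest in Nsun7-/- mouse 3, at 0.33 and 0.21, while the other members stay near 0.

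For the abundant motors of the sperm arms the genotypes overlapped. Dnah8 was at 3752, 2408 and 2628 CPM in WT mice 1, 2 and 3 and at 2640, 2566 and 3341 in Nsun7-/- mice 1, 2 and 3 (-0.04, SE 0.18, adjusted p = 0.956), and its sign turned when WT mouse 1 was left out (0.17). Dnah17 was at 1642, 1663 and 1996 CPM in WT and at 1914, 2082 and 1999 in the Nsun7-/- mice (0.18, SE 0.13, adjusted p = 0.702). Dnah1 and Dnah2 lay at 0.02 (SE 0.13) and 0.05 (SE 0.12). The antisense row Dnah2os was at 2.10 ± 0.278 CPM in WT and 1.59 ± 0.476 in the Nsun7-/- mice (-0.41, edgeR adjusted p = 0.671). The sources do not state that strand was kept, and the part of Dnah2 reads in this row was not tested. Of the 49 members with a place in GENCODE M21, 30 overlap another annotated gene on the opposite strand. These overlaps are of whole gene spans, and shared exons were not looked at.

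No intermediate or light chain passed the test, and in all 7 the genotypes overlapped. The 4 intermediate chains lay between -0.17 (Dnai2, adjusted p = 0.733) and 0.13 (Dnai3, adjusted p = 0.752), and all 4 intervals were within 1.5-fold. Dnal4 was at -0.13 (SE 0.12), Dnali1 at -0.05 (SE 0.11) and Dnal1 at 0.12 (SE 0.17), all within 1.5-fold as well.

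Of 8 assembly factors tested 4 lay above 0 and 4 below, and 1, Dnaaf5, did not overlap. It was at 182, 168 and 158 CPM in WT mice 1, 2 and 3 and at 155, 145 and 123 CPM in Nsun7-/- mice 1, 2 and 3. The highest knockout library was close to the lowest wild-type one (-0.27, SE 0.12, edgeR adjusted p = 0.587). Dnaaf5-203, a minor coding form, had 198 and 255 counts in WT mice 1 and 2, 0 in WT mouse 3, and 0.0233, 0 and 15.6 in the Nsun7-/- mice, so that the groups overlapped. Dnaaf10 was at 0.15 (SE 0.13) and Dnaaf1 at -0.10 (SE 0.12).

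None of the nexin complex genes and rulers passed the test, and all overlapped between the genotypes. All 6 nexin complex genes had intervals within 1.5-fold, from -0.12 (Tcte1, SE 0.12) to 0.09 (Ccdc65, SE 0.13). Ccdc39 was at -0.16 (SE 0.20) and Ccdc40 at -0.04 (SE 0.12). The Ccdc39 value rests mainly on transcripts annotated as retained introns: its sole coding form in the table, Ccdc39-201, had 4.14, 16.4 and 16.1 estimated counts in WT mice 1, 2 and 3 and 10.2, 17.2 and 30.6 in Nsun7-/- mice 1, 2 and 3, at most 5.08% of the gene (0.51, SE 0.62, adjusted p = 0.935). Minor transcripts of 3 of these genes had an unadjusted edgeR p under 0.05, with adjusted p = 0.932 in each. Ccdc65-202, of 566 bases, was at 58.8 ± 24.8 estimated counts in WT and 143 ± 45.04 in the Nsun7-/- mice. In CPM it was higher without overlap, as were 6.11% of all transcripts. Drc3-205 and Iqcg-205, non-coding forms, were at 74.7 ± 28.4 against 34.5 ± 14.8 and at 57.3 ± 23.9 against 29.0 ± 8.33 (SD, n = 3, estimated counts not scaled for depth). In all, 10 member transcripts had such a p, out of 150 tested, where 4.76% of all transcripts did.

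No spoke gene or tektin passed the test. Of 7 spoke genes tested 5 lay below 0, with Rsph14 at -0.17 (SE 0.15), Rsph1 at -0.12 (SE 0.15), Rsph3a at -0.02 (SE 0.12) and Rsph3b at 0.13 (SE 0.13). The 5 tektins lay between -0.16 (Tekt4, SE 0.14) and 0.08 (Tekt3, SE 0.11), and all 5 intervals were within 1.5-fold. Tekt3 did not overlap between the genotypes although the difference was small: 121, 122 and 116 CPM in WT mice 1, 2 and 3 and 126, 125 and 127 CPM in Nsun7-/- mice 1, 2 and 3 (adjusted p = 0.825). In all, 3 members lay higher without overlap (Dnah11, Dnah9 and Tekt3), where 7.38% of genes did, and 2 lower (Rsph6a and Dnaaf5), where 6.95% did.

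Other genes of the axoneme, and the cytoplasmic dyneins, were followed through 8 lists with 91 entries. Of these, 83 were found in the table by the symbols listed and 81 were tested. The lists cover outer arm docking, other dynein assembly factors, small light chains, the remaining nexin complex and spoke genes, the central pair, microtubule inner proteins and cytoplasmic dyneins. The cytoplasmic dyneins, not part of the axoneme, make up 9 of the 81. An entry not found can be an older name of a member, as Dyx1c1 is of Dnaaf4. None of the 81 passed the test (0 called in edgeR and 0 in DESeq2). An unadjusted edgeR p under 0.05 was found for 6 of the 81, where 8.39% of all genes had one. Above 0 lay 40 and below it 41, and the median was 0.00. The smallest p values belonged to Lrrc6, an assembly factor (0.42, SE 0.17, adjusted p = 0.541), and Dynlrb1, a light chain of the roadblock type (-0.36, SE 0.15, adjusted p = 0.548). Central pair genes had a summed CPM of 1066 to 1140 in WT and 1081 to 1312 in the Nsun7-/- mice, and microtubule inner proteins one of 1424 to 1489 and 1475 to 1501. A pair of the 8 lists did not overlap in their sums, where 14.3% of single genes did not overlap in either direction. A sum follows its most abundant genes. The other dynein assembly factors ran from 1320 to 1364 in WT and from 1063 to 1296 in the Nsun7-/- mice, with 9 of 12 genes below 0. Small light chains ran from 606 to 971 and from 530.5 to 572, with 5 of 7 tested genes below 0, and Dynlt1b, singled out after its values were seen, made up much of the gap (400.4 ± 208 and 204.9 ± 31.3 CPM, SD, n = 3, adjusted p = 0.578).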

How the data were processed

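RNA of 6 mouse testes was sequenced after ribosomal and globin RNA depletion, per the labels' protocols. The submitters' processing notes name kallisto 0.50.1 and the build mm39. Which annotation was used, whether strand was kept and how transcripts were joined to symbols is not given in the sources used here. Per library, the authors deposited estimated counts, transcript lengths and TPM for each transcript, and for the series gene tables of estimated counts and of TPM. Gene counts were whole numbers; transcript estimates were rounded here before testing. TPM keeps no depth.

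The test on counts was that of edgeR 4.0.16 in R 4.3.3 (TMM, filterByExpr with a minimum count of 10 and a minimum total of 15, robust quasi-likelihood test, genotype as the only term), with Benjamini-Hochberg adjustment over all 21002 genes or 58773 transcripts and a threshold of 0.05. Of 34144 gene rows 30388 had a count. The tables held 0 columns of other samples. SEs are the log2 fold change over the root of the F value, and positive values mean higher in the knockout. Library differences use log2(CPM + 0.5). DESeq2 1.42.0 and limma 3.58.1 gave alternatives, the other ones being upper quartile and RLE scaling, a mean CPM filter at 1, no filter, centred log2(TPM + 1) and log2(TPM + 0.1), a replicate block, libraries left out and rescaled TPM.

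The scripts were tested on seeded data with known answers. In these simulated counts the gene test recovered 30%, 64% and 98% of log2 changes of 0.585, 1 and 2. The transcript test recovered 0%, 16% and 46%. A lack of calls, above all for transcripts, thus says little about smaller changes. The members, the lists and the tests were chosen with earlier results of these data known. In each group of genes the 3 members of highest wild-type TPM, the lowest one and the 2 of smallest p are named, with the paralog pairs. Other members named were chosen after their values were seen. Sequences come from RefSeq (GRCm38.p6; 40 members matched) and GENCODE M21 (GRCm38). As the build of the reads is another one, no gene coordinates are given beyond those of the sequences. Replicates are separate mice, and whether they shared litters or days is not given.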

Additional observations from a re-analysis of the deposited data

How the results depend on the processing

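The number of genes called moved with the fit, from 119 to 180 without a count filter, 205 with DESeq2, 331 with the replicate block, and 63 and 60 on centred log2 TPM with 1 and 0.1 added. Leaving out 1 mouse gave 67 to 166, with 67, 78 and 78 without WT mice 1, 2 and 3. Of the members 0 were called in edgeR under either other scaling, either filter setting or the block, and 1, Dnah11, was called with DESeq2 and in the fit that left out WT mouse 1 together with Nsun7-/- mouse 3. Leaving out 1 mouse called 0 to 1 members, the 1 being Dnah11 without Nsun7-/- mouse 3. Members with an unadjusted p under 0.05 numbered 2 and 3 on centred TPM, 7 with the block and 3 to 7 on leaving out 1 mouse (3 without WT mouse 1). Mice of the same number deviated together for numbers 1 and 3 (correlations of 0.22 and 0.26 over genes, the 2 highest of 9) and not for number 2 (-0.01), and neither mouse 2 correlated best with its own number. In both genotypes the first principal component rose, and the Rmrp share fell, from mouse 1 to mouse 3. What the numbers stand for is not given, so the main test leaves them out and the block is an alternative. Under the replicate block the edgeR adjusted p of Dnah11, Rsph6a and Dnah9 was 0.0652, 0.0706 and 0.0777.

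Some values turned sign. Dnah5, at 0.66 in the test on counts, was at -0.18 on centred TPM with 1 added and at 0.19 with 0.1 added. Its TPM lay far under 1 in every library, so the value with 1 added says little about Dnah5. Rsph3a, near 0, was at 0.062 with 1 and 0.030 with 0.1 added. On leaving out 1 mouse, Dnah8 ran from -0.18 to 0.17, Rsph3a from -0.11 to 0.057, Ccdc40 from -0.13 to 0.0092, Ccdc65 from -0.051 to 0.18 and Dnal1 from -0.13 to 0.24. In the fit without WT mouse 1 and Nsun7-/- mouse 3, Ccdc65 was at -0.058, Dnah8 at 0.048, Dnal1 at -0.12, Rsph3a at 0.0041 and Tekt4 at 0.059, and over single mice Tekt4 ran from -0.26 to -0.035. Among the log2 paralog ratios, the difference for Rsph6a to Rsph4a ran from -0.64 to 0.037 and that for Rsph3b to Rsph3a from -0.027 to 0.18 on leaving out 1 mouse. On the most counted transcripts, an alternative chosen after seeing the data, the difference for Dnah17 to Dnah11 was -3.62 (two-sided exact permutation p = 0.1, the smallest that 3 against 3 allow), and the other 4 pairs kept their direction. Leaving Rmrp and Ccnb1ip1 out of TPM raised WT levels by 1.32 to 1.40 times. The causes were not tested. Depth limits Rsph4a, Dnaaf6b, Dnah5 and the transcript Dnah11-204, which rest on few counts.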
